A study of Mus musculus with 18 samples.

Results

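Genes for DNA replication and for the supply of its nucleotides were followed in cultured mouse macrophages that received 25-hydroxycholesterol (25HC), the Toll-like receptor ligand Pam3CSK4 (PAM3), both or neither. The 45 genes were chosen by name from a fixed list, and each symbol matched 1 row of the 30530 gene rows in the count table. All 45 passed the filter on low counts and are among the 12741 genes tested. They comprise 10 genes of origin licensing and the replicative helicase, 5 of origin firing, 13 of DNA synthesis, 4 of strand joining and single-strand binding, 5 of deoxynucleotide supply, 4 of chromatin replication and 4 of the control of S phase entry.

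The cells were bone marrow derived macrophages, grown from marrow in culture, of C57BL/6 mice (B6) or of Ch25h-/- mice, which lack the enzyme that makes 25HC from cholesterol. B6 cells had no oxysterol or 5 µM 25HC for 18 hours, and were then at rest or given 300 ng/mL PAM3. Ch25h-/- cells had no 25HC and were at rest or given PAM3. Each of the 6 groups held 3 polyadenylated RNA libraries, numbered by mouse, and within a genotype the same mouse number recurs in every group. The labels give a stimulation time of 18 for PAM3 and 0 for rest, without a unit, so a difference in culture time cannot be told apart from PAM3. Age, sex, the design of the Ch25h allele and the purity of the cultures are not given in the labels.

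Library totals ranged from 14040513 to 150440297 counts. Ch25h itself had 0 to 2 counts in each of the 6 Ch25h-/- libraries and 76 to 1031 counts in each of the 12 B6 libraries. The 8 macrophage markers summed to between 20484 and 59413 CPM (counts scaled to the library total after TMM adjustment). Markers of mast cells and of erythroid cells summed to at most 0.206 and 0.238 CPM in any library. Only 3 of the 5 erythroid markers were in the count table. Those of neutrophils reached 91.0 CPM in the highest library, of T and NK cells 56.1, of B cells 23.8 and of fibroblasts 11.4 CPM. Those of haematopoietic progenitors reached 7.20 CPM and of dendritic cells 5.39 CPM. The least counted of the 45 genes in any library was Orc1, with 7 counts, and no other gene had a library under 10 counts.

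DNA replication begins at origins that are loaded with the MCM helicase in G1 phase and fired in S phase by kinases and loading factors. The polymerases then copy both strands on a sliding clamp, and ribonucleotide reductase, thymidylate synthase and thymidine kinase supply the deoxynucleotides. Many of these genes are textbook targets of the E2F transcription factors, which the retinoblastoma proteins hold in check in cells that do not divide. Macrophages grown from marrow with a growth factor divide in culture, and Toll-like receptor ligands are known to stop this division.

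Promoter windows of 300 bases, from 250 before to 50 after the annotated start, were taken from RefSeq (GRCm38.p6) and held 38 of the 45 genes. The windows were searched on both strands for the E2F core words TTTCCCGC, TTTCGCGC, TTTGCCGC and TTTGGCGC, whose matches may overlap each other. At least 1 word was present for 16 of the 38 genes, 42.1%, against 704 of all 27025 genes with a window, 2.6%. A CCAAT box was present for 22 of 38 genes, 57.9%, against 41.1% of all genes. The cell cycle homology words TTTGAA and TTCGAA were present for 8 of 38 genes, 21.1%, against 21.7% of all genes. A match of letters is a description of the window and does not show that a factor binds there.

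The windows of 6 genes are shown as examples of genes described below. Mcm6 and Mcm7, helicase subunits, had 3 and 2 matches. Mcm10 and Tk1, which fell with 25HC in PAM3-treated cells, had 0 and 0 matches. The Mcm10 window ends in TTTGGCG, so a word that runs past its end would be missed. Cdt1 and Tyms, which were higher in every 25HC library with PAM3 without passing the test, had 1 and 0 matches. Capitals mark the E2F core words, each sequence is given 5′ to 3′ on the strand of the gene, and for Mcm7 the window of the upstream of its 2 annotated starts is shown.
Mcm6, chr1:128359656-128359955, minus strand: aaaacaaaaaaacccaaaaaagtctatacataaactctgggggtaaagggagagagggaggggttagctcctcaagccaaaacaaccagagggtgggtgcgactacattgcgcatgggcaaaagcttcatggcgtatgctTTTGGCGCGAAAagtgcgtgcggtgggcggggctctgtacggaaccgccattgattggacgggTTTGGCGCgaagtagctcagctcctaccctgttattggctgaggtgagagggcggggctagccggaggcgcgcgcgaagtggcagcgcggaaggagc
Mcm7, chr5:138171834-138172133, minus strand: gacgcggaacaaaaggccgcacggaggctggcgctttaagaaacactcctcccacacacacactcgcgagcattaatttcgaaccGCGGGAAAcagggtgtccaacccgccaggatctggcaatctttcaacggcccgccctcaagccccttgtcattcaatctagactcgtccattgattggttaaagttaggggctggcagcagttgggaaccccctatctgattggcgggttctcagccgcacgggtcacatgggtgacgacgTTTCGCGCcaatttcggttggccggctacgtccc
Cdt1, chr8:122567765-122568064, plus strand: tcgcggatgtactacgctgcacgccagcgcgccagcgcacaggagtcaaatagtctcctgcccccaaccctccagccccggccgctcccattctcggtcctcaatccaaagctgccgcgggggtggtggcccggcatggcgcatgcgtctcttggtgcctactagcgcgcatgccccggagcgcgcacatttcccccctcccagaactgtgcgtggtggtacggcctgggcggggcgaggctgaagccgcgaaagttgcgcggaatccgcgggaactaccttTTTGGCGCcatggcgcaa
Tyms, chr5:30073576-30073875, minus strand: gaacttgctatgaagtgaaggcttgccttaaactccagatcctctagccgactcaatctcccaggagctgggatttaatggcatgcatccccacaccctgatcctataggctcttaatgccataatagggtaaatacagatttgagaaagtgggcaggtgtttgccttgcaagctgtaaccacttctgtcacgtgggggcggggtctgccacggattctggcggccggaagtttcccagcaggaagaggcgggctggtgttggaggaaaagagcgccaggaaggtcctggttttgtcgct
Mcm10, chr2:5012742-5013041, minus strand: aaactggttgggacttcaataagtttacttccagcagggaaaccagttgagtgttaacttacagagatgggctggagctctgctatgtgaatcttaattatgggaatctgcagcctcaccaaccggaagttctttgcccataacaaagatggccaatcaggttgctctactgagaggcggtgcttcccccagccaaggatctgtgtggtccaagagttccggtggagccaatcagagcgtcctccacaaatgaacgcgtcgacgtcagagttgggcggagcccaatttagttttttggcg
Tk1, chr11:117825965-117826264, minus strand: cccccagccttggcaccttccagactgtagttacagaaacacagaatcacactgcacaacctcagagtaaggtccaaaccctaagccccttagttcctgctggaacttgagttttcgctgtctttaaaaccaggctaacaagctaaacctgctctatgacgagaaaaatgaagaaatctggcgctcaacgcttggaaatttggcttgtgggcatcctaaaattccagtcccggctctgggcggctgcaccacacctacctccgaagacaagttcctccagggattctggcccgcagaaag

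In resting cells the 45 genes together took up between 0.0572% and 0.331% of all counts. Per kilobase of exon, the mean level in untreated B6 at rest was highest for Pcna, the sliding clamp, at 67.8 CPM per kb. Mcm6 followed with 42.7 CPM per kb, then the helicase subunit Mcm5 with 27.3 and Rrm2 of ribonucleotide reductase with 26.8. Orc1, the largest subunit of the origin recognition complex, was the lowest there at 1.245 CPM per kb. The order differed with PAM3, where in untreated B6 Pcna was again the highest at 33.7 CPM per kb and the polymerase gene Pole the lowest at 0.184. Exons of 14 of the 45 genes overlap a gene on the opposite strand. The overlap was 2039 bases for the flap nuclease Fen1, 2758 for Gins2, 4648 for Chaf1a and 952 for Rfc2. For the other 10, Pole, Tk1, Orc6, Rfc4, Cdc45, Lig1, Orc1, Mcm7, Rfc5 and Ccne2, it was 78 to 609 bases. Since no source states whether the counting used strand, reads in these stretches cannot be assigned to 1 of the 2 genes.

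By summed level replicate 2 was the lowest library in all 3 resting groups. It stood apart from replicates 1 and 3 in untreated B6 and in Ch25h-/-. The summed level of the 45 genes in untreated B6 at rest was 3150, 996 and 2637 CPM in replicates 1, 2 and 3. In 25HC-treated B6 at rest it was 2184, 1666 and 2728 CPM, so that replicate 1 lay between replicates 2 and 3. In Ch25h-/- at rest it was 2980, 550 and 2592 CPM. Replicate 2 was the lowest of the 3 for 45 of 45 genes in untreated B6, for 44 of 45 in 25HC-treated B6 and for 45 of 45 in Ch25h-/-, where 44.0%, 44.3% and 43.8% of all tested genes had their lowest value in replicate 2.

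The mean of replicates 1 and 3 was a median of 2.98 times replicate 2 in untreated B6, 1.48 times in 25HC-treated B6 and 5.00 times in Ch25h-/-. Over all tested genes this ratio was 1.00, 1.01 and 1.00. The clamp loader subunit Rfc2 had the smallest ratio in each group, 1.37, 1.07 and 1.68. Ccne2, the cyclin E2 gene that drives entry into S phase, had the largest, 9.98, 2.31 and 34.0. In resting cells Ccne2 stood at 38.6, 3.47 and 30.7 CPM for untreated B6 and at 28.8, 0.823 and 27.1 CPM for Ch25h-/-. Replicate 2 was thus the low library in both genotypes, which come from different mice.

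**Figure D1:**
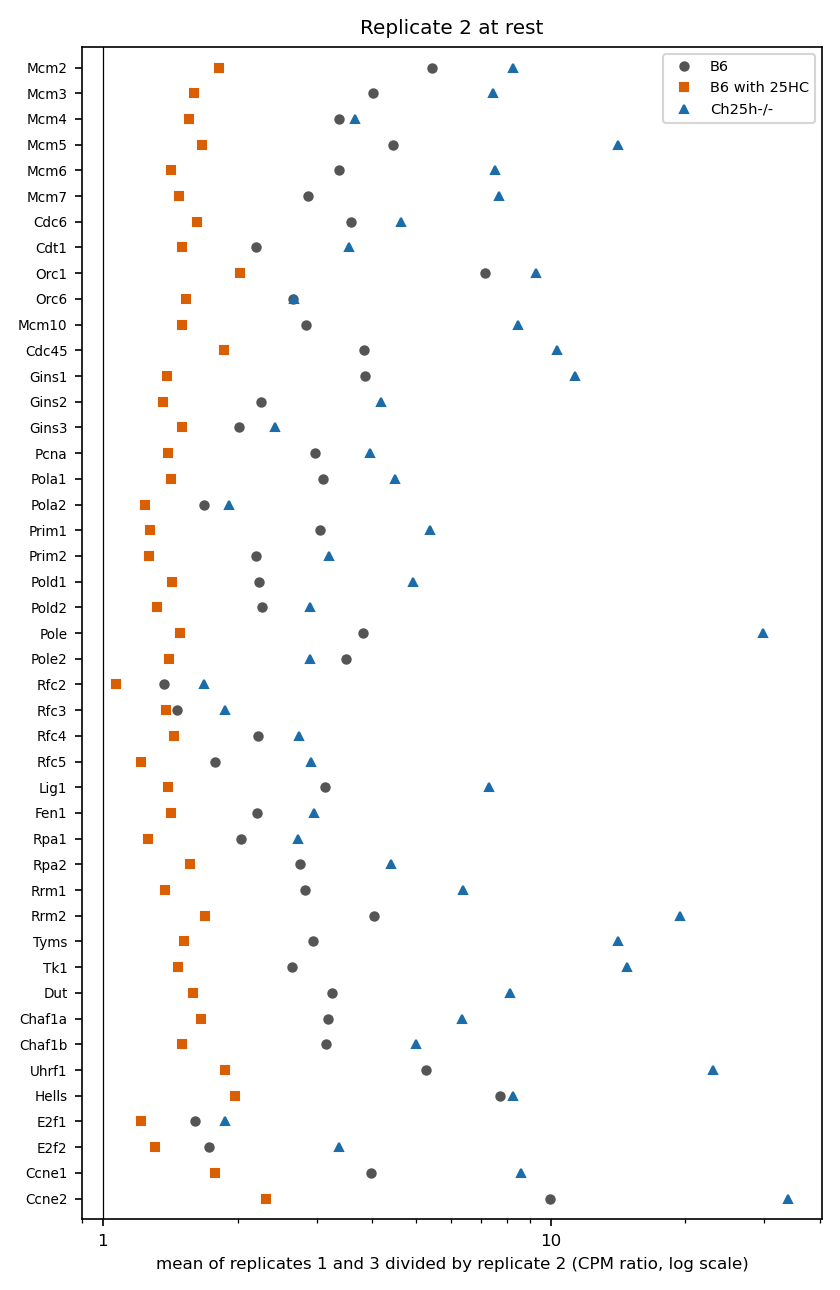
Ratio of the mean CPM of replicates 1 and 3 to that of replicate 2 in each resting group (x axis, log scale) for the 45 genes (y axis, by role); 1 point is 1 gene in 1 group. Values of untreated B6 lie between 1.37 and 9.98, those of 25HC-treated B6 between 1.07 and 2.31 and those of Ch25h-/- between 1.68 and 34.0.

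Other genes moved with this split. The 20 mitosis genes summed to 1875, 1030 and 2276 CPM in untreated B6 at rest and to 2448, 403 and 2150 CPM in Ch25h-/- at rest. In 25HC-treated B6 at rest they summed to 1009, 984 and 1479 CPM, so that replicate 2 there lay close to replicate 1. Ccnd1, the cyclin D1 gene, stood at 832, 55.6 and 362 CPM in untreated B6. Replicate 2 of Ch25h-/- at rest also held the most counts of neutrophil markers, 91.0 CPM against 19.7 and 31.5, and of T and NK cell markers, 56.1 CPM against 8.76 and 15.0, where Cd4 alone gave 56.0 CPM. T and NK cell markers were also highest in replicate 2 of untreated B6 at rest, 26.3 CPM against 11.0 and 14.1, and of 25HC-treated B6 at rest, 9.29 CPM against 4.24 and 5.15. All 7 neutrophil markers and all 6 T and NK cell markers were in the table, and 1 of the latter was at 0 in every library. Only 1 of these 6 passed the filter on low counts, and Cd4 had the highest mean of them. The sums of T and NK cell markers thus do not describe the list as a whole. Macrophage markers in replicate 2 of Ch25h-/- at rest summed to 40446 CPM against 28743 and 31122. The part of these differences in the level of the replication genes was not tested, and in bulk RNA fewer cells in S phase and less RNA per cell cannot be told apart.

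With PAM3 the summed levels of the 45 genes lay close together within each group, as the left plot shows. The 45 genes summed to 592, 648 and 726 CPM in untreated B6, to 458, 482 and 441 CPM in 25HC-treated B6 and to 699, 618 and 714 CPM in Ch25h-/-. The 3 libraries of 25HC-treated B6 with PAM3 were the lowest of all 18. Replicate 2 of Ch25h-/- at rest, at 550 CPM, lay below every PAM3 library of untreated B6 and of Ch25h-/-. In that library 20 of the 45 genes lay below all 3 Ch25h-/- PAM3 libraries and 17 above them, where 42.5% of all tested genes lay below and 44.9% above. Replicates 1 and 3 of Ch25h-/- at rest both lay above all PAM3 libraries of their genotype for 44 of 45 genes, all but Pold2, against 39.5% of all tested genes. In PAM3-treated Ch25h-/- replicate 2 was the lowest of the 3 for 32 of 45 genes, against 39.3% of all tested genes. In PAM3-treated untreated B6 and 25HC-treated B6 it was the lowest for 12 and 12 of 45, against 28.4% and 37.3%. The 20 mitosis genes summed to 134, 69.2 and 136 CPM in Ch25h-/- with PAM3.

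**Figure D2:**
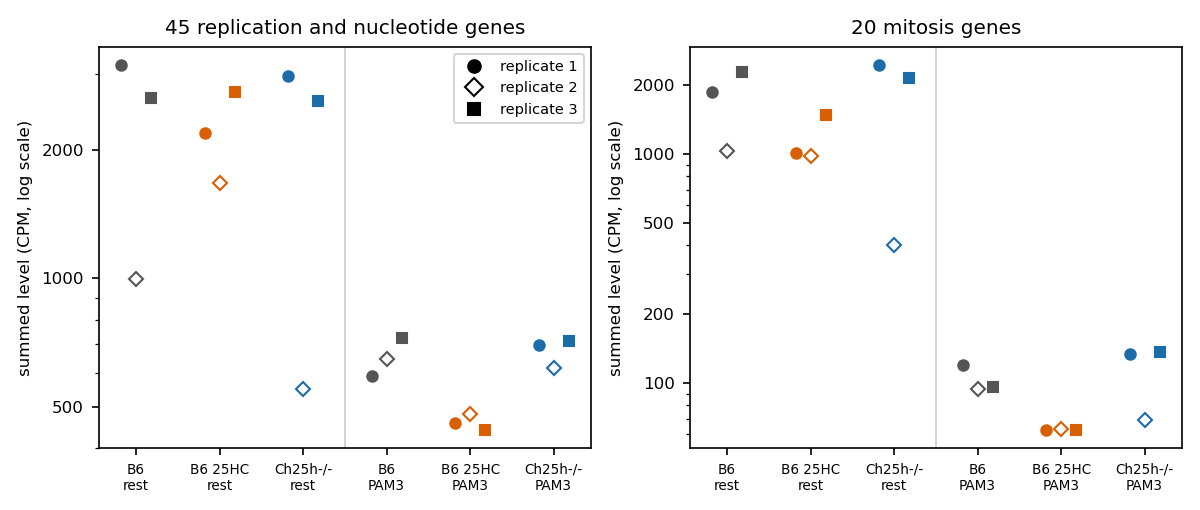
Summed level in CPM (y axis, log scale) of the 45 replication genes (left) and of 20 mitosis genes (right) in each of the 18 libraries, by group; 1 point is 1 library and open diamonds are replicate 2. Replicate 2 is the lowest resting library in each group, at 996, 1666 and 550 CPM on the left, and the PAM3 libraries lie between 441 and 726 CPM.

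PAM3 against rest asked how these genes respond to the ligand. In untreated B6 38 of the 45 genes fell and 0 rose (edgeR's quasi-likelihood test, adjusted p below 0.05, Benjamini-Hochberg over all tested genes). Of all tested genes 30.8% fell and 31.3% rose. The median log2 fold change was -1.90 over the 45 genes and 0.00 over all tested genes. In 25HC-treated B6 42 genes fell and 0 rose, where 30.4% of all tested genes fell and 28.5% rose, with medians of -2.79 and -0.02. In Ch25h-/- 34 genes fell and 0 rose, where 32.1% fell and 29.9% rose, with medians of -1.61 and -0.04. The fall was called in all 3 settings for 32 genes and in none for 1 gene, Pold2. Without replicate 2 at rest, 44 of the 45 fell in each of the 3 settings, where 30.7%, 31.0% and 30.8% of all tested genes fell. The exception was Pold2 in untreated B6 and in Ch25h-/-, and Tyms with 25HC. Replicate 2 was the lowest resting library for 45, 44 and 45 of these genes in untreated B6, 25HC-treated B6 and Ch25h-/-. Leaving it out raises their resting means, so the higher counts are not separate support for the falls. The fold change was in the same direction in all 3 mouse numbers for 33 of the 38 called genes in untreated B6, for 42 of 42 with 25HC and for 23 of 34 in Ch25h-/-.

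The licensing genes fell by a median of 2.23 on the log2 scale in untreated B6, with 9 of 10 called. They comprise the MCM helicase subunits Mcm2 to Mcm7 and genes that load this helicase onto origins. Mcm6 (chr1:128331590-128359664, minus strand, GRCm38) stood at 290, 77.1 and 230 CPM at rest and at 40.5, 43.5 and 51.5 CPM with PAM3. Every PAM3 library lay below every resting one, and the log2 fold change was -2.14 ± 0.55 (SE), adjusted p = 0.00317. Mcm7 (chr5:138164583-138172422) stood at 104, 33.4 and 87.6 CPM at rest and at 5.80, 6.41 and 7.79 CPM with PAM3. Its log2 fold change of -3.49 ± 0.57 was the largest fall of the 10 and no library overlapped between the groups.

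Mcm2, Mcm4 and Mcm5, the other subunits with called falls in all 3 settings, changed by -2.20, -2.27 and -3.02 in untreated B6. Mcm3 changed by -1.50 ± 0.56 there, with 1 resting library, replicate 2 at 33.0 CPM, inside the PAM3 range of 29.6 to 39.0 CPM. The MCM loaders Cdc6 and Cdt1 fell by 2.66 and 1.69. Orc1 fell by 2.35, and Orc6, the smallest subunit of the origin recognition complex, was at -0.75 ± 0.35, adjusted p = 0.0720, which did not pass the test. Orc6 passed with 25HC, at -1.19 ± 0.35, adjusted p = 0.00874.

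All 5 origin firing genes fell in untreated B6, with a median of -1.90. Mcm10, which helps to activate the loaded helicase, stood at 47.4, 15.4 and 39.7 CPM at rest and at 2.25, 2.93 and 3.85 CPM with PAM3, with no overlap. Its log2 fold change was -3.50 ± 0.59 in untreated B6, -5.67 ± 0.67 with 25HC and -2.43 ± 0.57 in Ch25h-/-. Cdc45, a cofactor of the active helicase, fell by 3.05, 3.50 and 2.74 in the same order. The genes of the GINS complex, which completes that helicase, fell too, with log2 fold changes of -1.62 for Gins1, -1.90 for Gins2 and -1.21 for Gins3 in untreated B6.

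Of the 13 synthesis genes 11 fell in untreated B6, and their range was wide. Pole, the catalytic subunit of the leading strand polymerase, stood at 81.7, 20.03 and 70.8 CPM at rest and at 1.86, 1.89 and 2.42 CPM with PAM3. Its log2 fold change was -4.81 ± 0.84, and its partner Pole2 changed by -1.01 ± 0.42. Pola1, the catalytic subunit of the polymerase that primes each strand, stood at 82.6, 26.7 and 82.5 CPM at rest and at 8.45, 7.90 and 6.38 CPM with PAM3. Both groups of libraries were separate for Pole and Pola1. Pola1 fell by 3.07 ± 0.48 and the accessory Pola2 by 0.81 ± 0.22. The primase genes Prim1 and Prim2 changed by -2.497 and -1.41, and Pold1, the catalytic subunit of the lagging strand polymerase, fell by 1.28.

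The clamp loader genes Rfc2, Rfc3, Rfc4 and Rfc5 fell by 0.65, 0.90, 1.22 and 2.18. Rfc5 stood at 30.1, 17.1 and 31.0 CPM at rest and at 4.29, 6.26 and 6.67 CPM with PAM3, again with no overlap. Pcna stood at 226, 70.1 and 192 CPM at rest and at 76.8, 69.7 and 95.8 CPM with PAM3. Replicate 2 at rest lay within the PAM3 range, and the log2 fold change of -1.01 ± 0.43 did not pass, at an adjusted p of 0.0519. Without replicate 2 of untreated B6 at rest it was -1.37, adjusted p = 0.00817, and with the mouse number as a block it was -0.93, adjusted p = 0.0303.

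Pold2, the accessory subunit of the lagging strand polymerase, was the only one of the 45 with a positive log2 fold change in untreated B6. It stood at 16.6, 6.73 and 13.96 CPM at rest and at 15.0, 21.6 and 20.4 CPM with PAM3 in untreated B6. In Ch25h-/- it stood at 15.3, 5.07 and 14.1 CPM at rest and at 18.1, 22.3 and 21.6 CPM with PAM3, where every PAM3 library lay above every resting one. Its log2 fold change was 0.62 ± 0.35 in untreated B6, 0.84 ± 0.36 in Ch25h-/- and -0.58 ± 0.35 with 25HC, with adjusted p of 0.131, 0.0511 and 0.163. None of the 3 passed the test, but the one in Ch25h-/- lay at its threshold. With the mouse number as a block Pold2 rose there by 0.94 ± 0.38, adjusted p = 0.0469, and with DESeq2 by 0.84, adjusted p = 0.0306. Without replicate 1 of Ch25h-/- at rest it rose by 1.09, adjusted p = 0.0298, and without replicate 2 of that group it was at 0.50, adjusted p = 0.183.

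The joining genes fell in 3 of 4 cases in untreated B6. Lig1, the ligase that seals Okazaki fragments, stood at 119, 35.5 and 104 CPM at rest and at 11.4, 10.4 and 12.5 CPM with PAM3. Rpa1, the large subunit of the single-strand binding protein, stood at 140, 64.8 and 123.1 CPM at rest and at 55.6, 67.1 and 70.5 CPM with PAM3. Replicate 2 at rest lay inside the PAM3 range for Rpa1 but not for Lig1. Lig1 fell by 2.91 ± 0.56, Fen1 by 1.38 ± 0.35 and Rpa1 by 0.76 ± 0.30. Rpa2, the middle subunit of that protein, was at -0.95 ± 0.42, adjusted p = 0.0617. Without replicate 2 of untreated B6 at rest, its lowest resting library, Rpa2 was at -1.30, adjusted p = 0.0117. With the mouse number as a block it was at -0.87, adjusted p = 0.0473.

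The nucleotide supply genes held some of the largest falls of the 45. Tk1, the S phase thymidine kinase (chr11:117815526-117826092), stood at 50.6, 19.1 and 50.6 CPM at rest and at 1.66, 1.49 and 1.91 CPM with PAM3. Rrm2, the S phase subunit of ribonucleotide reductase, stood at 99.7, 24.6 and 98.4 CPM at rest and at 2.94, 1.81 and 2.62 CPM with PAM3. The log2 fold changes were -4.58 ± 0.72 and -4.95 ± 0.83, and both genes were lower in every PAM3 library. Rrm1, the large subunit of the same enzyme, stood at 235, 81.7 and 228 CPM at rest and at 32.9, 36.6 and 39.4 CPM with PAM3. It fell by 2.32 ± 0.50, and Dut, which removes dUTP, by 2.78.

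Tyms, thymidylate synthase (chr5:30058202-30073617), stood at 28.2, 9.54 and 28.1 CPM at rest and at 12.8, 5.95 and 9.93 CPM with PAM3 in untreated B6, a log2 fold change of -1.20 ± 0.63 that did not pass, adjusted p = 0.109. With the mouse number as a block it passed, at -1.14, adjusted p = 0.0138. In 25HC-treated B6 it stood at 18.0, 13.3 and 22.6 CPM at rest and at 19.0, 18.1 and 19.9 CPM with PAM3, a log2 fold change of 0.08 ± 0.62. In Ch25h-/- it fell by 1.86 ± 0.67, adjusted p = 0.0240. With 25HC the PAM3 libraries thus lay inside the resting range, where in untreated B6 only replicate 2 at rest overlapped with PAM3.

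All 4 chromatin genes fell in untreated B6. Uhrf1, which brings the maintenance DNA methyltransferase to new DNA, stood at 124, 21.0 and 97.7 CPM at rest and at 6.03, 6.33 and 7.65 CPM with PAM3. It fell by 3.60 ± 0.80, with no overlap. Chaf1a and Chaf1b, subunits of the assembly factor that places histones behind the fork, changed by -1.69 and -1.90, and the chromatin remodeller Hells by -1.73.

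Of the 4 control genes E2f2 and Ccne2 fell in untreated B6. E2f2, an activator of S phase genes, stood at 46.2, 25.1 and 40.5 CPM at rest and at 3.396, 3.61 and 4.25 CPM with PAM3. Its fall of 3.31 ± 0.37 had the smallest adjusted p of the 45, 2.82e-06. Ccne2 changed by -5.23 ± 1.02, the largest fold change of the list at 37.6-fold. E2f1, another activator, stood at 71.0, 39.2 and 55.2 CPM at rest and at 44.2, 49.3 and 50.1 CPM with PAM3, so the groups overlapped, and its log2 fold change was -0.20 ± 0.22, adjusted p = 0.440. Ccne1, the cyclin E1 gene, was at -0.57 ± 0.56, adjusted p = 0.390, with replicate 2 at rest, 3.89 CPM, below the PAM3 range of 7.05 to 8.58 CPM.

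With 25HC the smallest adjusted p of the PAM3 response belonged to Rfc5, E2f2, Mcm10, Tk1, Cdc6 and Dut. In 25HC-treated B6 Rfc5 stood at 20.1, 18.4 and 24.8 CPM at rest and at 2.40, 2.65 and 2.61 CPM with PAM3, a log2 fold change of -3.05 ± 0.34. Tk1 stood at 25.5, 21.7 and 38.3 CPM at rest and at 0.246, 0.290 and 0.231 CPM with PAM3, a 107-fold fall, log2 -6.75 ± 0.84. These groups did not overlap. Mcm10 went from 30.6, 21.8 and 34.8 CPM to 0.772, 0.488 and 0.462 CPM. E2f2 went from 43.2, 33.9 and 45.4 CPM to 4.51, 3.27 and 5.13 CPM, a log2 fold change of -3.26 ± 0.37. Cdc6 and Dut changed by -4.24 ± 0.57 and -4.36 ± 0.63, and Ccne1 and E2f1 passed here, at -1.64 ± 0.57 and -0.76 ± 0.22.

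In Ch25h-/- the smallest adjusted p belonged to E2f2, Tk1, Rfc5, Mcm7, Pola1 and Rrm2. E2f2 stood at 33.0, 10.1 and 34.7 CPM at rest and at 3.48, 2.27 and 3.07 CPM with PAM3, a log2 fold change of -3.15 ± 0.39. Tk1 stood at 57.0, 3.77 and 54.5 CPM at rest and at 1.72, 0.523 and 1.35 CPM with PAM3, -5.02 ± 0.77. Replicate 2 at rest was low for both and still above the PAM3 libraries. Rfc5 changed by -1.92 ± 0.33, Mcm7 by -3.13 ± 0.57, Pola1 by -2.60 ± 0.47 and Rrm2 by -4.24 ± 0.83. Rrm2 stood at 97.1, 4.80 and 89.5 CPM at rest and at 4.39, 1.48 and 4.32 CPM with PAM3, so that replicate 2 at rest lay just above the highest PAM3 library.

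Some of these calls turned on single libraries. In untreated B6 those of Mcm3, Gins1, Pole2, Rpa1 and Hells were lost without replicate 1 or 3 at rest or without any 1 PAM3 library, and that of Pold1 without replicate 1 at rest or replicate 1 with PAM3, at adjusted p of 0.0550 to 0.191. With 25HC those of Pcna, Pola2 and Ccne1 were lost without at least 1 library, at adjusted p of 0.0519 to 0.0977. In Ch25h-/- the same held for Mcm2, Mcm6, Pold1, Rfc4, Rpa2, Tyms and Chaf1a, at adjusted p of 0.0511 to 0.168. The other 32, 39 and 27 calls remained without any 1 library. In Ch25h-/- the calls of Mcm2, Pold1, Rpa2 and Chaf1a were lost with the mouse number as a block, at adjusted p of 0.141, 0.0656, 0.0533 and 0.0527, and Orc1 fell there, adjusted p = 0.0412.

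**Figure D3:**
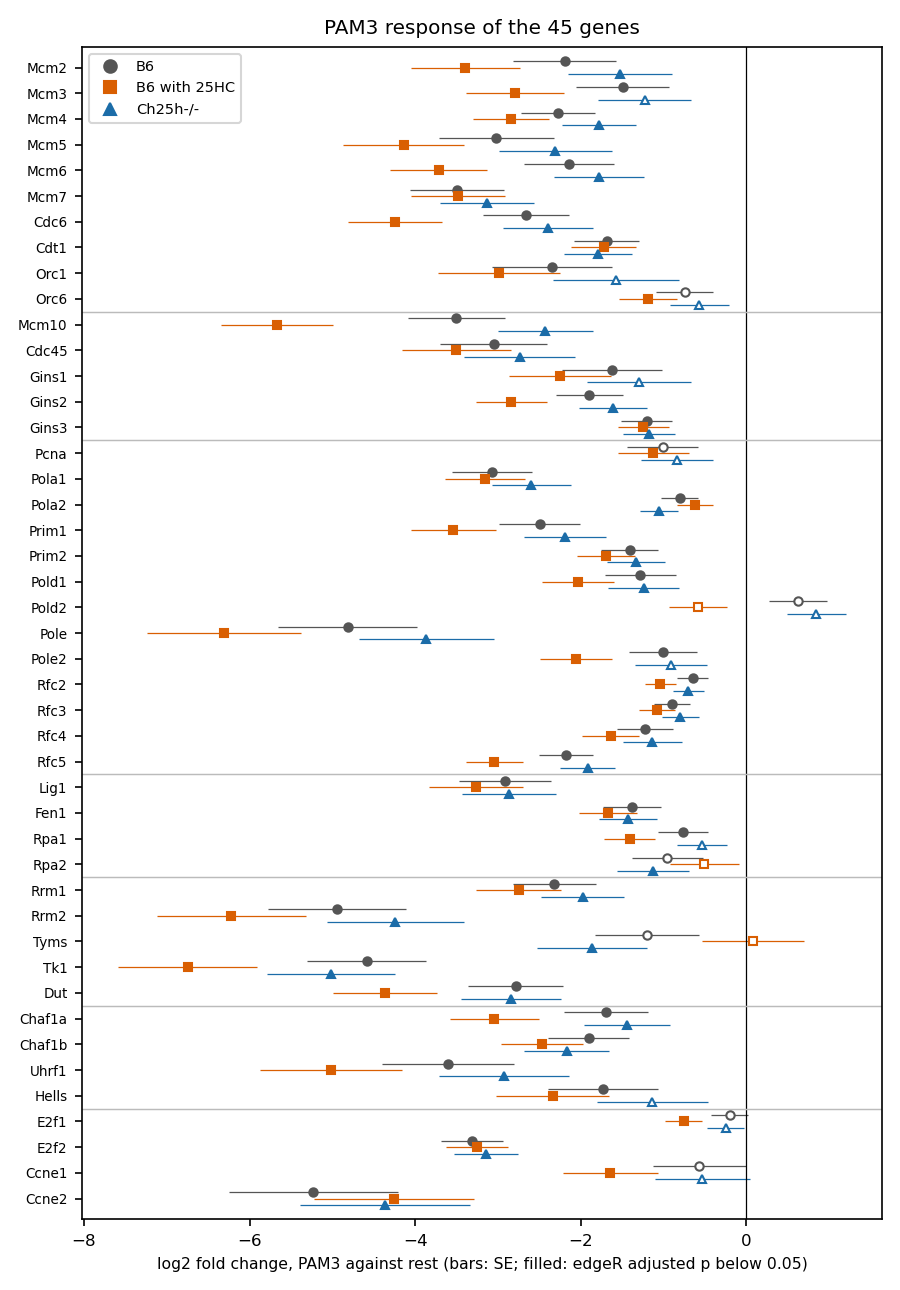
Log2 fold change of PAM3 against rest (x axis; bars are SE) for each of the 45 genes (y axis, grouped by role) in untreated B6, 25HC-treated B6 and Ch25h-/-; filled symbols passed an adjusted p of 0.05. Filled symbols number 38, 42 and 34 and all lie left of 0, and Pold2 is open in all 3 settings.

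The mitosis genes fell in the same comparison in 20 of 20 cases, with a median of -4.17 in untreated B6. Of the 29 other replication genes 18 fell and 4 rose. The shares of all tested genes were 30.8% lower and 31.3% higher. Gins4, the remaining gene of the GINS complex, fell by 0.90 ± 0.13. Pole4, an accessory subunit of the leading strand polymerase, rose by 1.56 ± 0.23. Of the 14 other nucleotide genes 3 fell and 6 rose. Nme1, a nucleoside diphosphate kinase, rose by 1.54 ± 0.36.

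Among the 26 other genes of G1 and S phase control 7 rose and 10 fell, where 31.3% of all tested genes rose and 30.8% fell. Cdkn1a, the p21 inhibitor of cyclin-dependent kinases, rose by 1.19 ± 0.15, from a mean of 306 ± 33.5 CPM to 698 ± 103 CPM (SD, n = 3). Cdkn1c and Cdkn2c, inhibitors of the same kinases, fell by 3.38 ± 0.24 and 3.25 ± 0.33. The 7 progenitor markers, all in the table and none at 0 in every library, summed to 2.37 to 6.09 CPM in untreated B6 at rest and to 0.281 to 0.478 CPM with PAM3. Their part in the fall of the replication genes was not tested.

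The comparison of 25HC with no oxysterol in PAM3-treated B6 gave 12 genes that fell and 0 that rose among the 45, where 23.6% of all tested genes fell and 21.5% rose. The 12 are thus near the share of all genes that fell. The median was -0.66 over the 45 and -0.04 over all tested genes. The log2 fold change was below 0 for 39 genes and above 0 for 6. For 34 genes every 25HC library lay below every untreated one, and for 4 genes, Cdt1, Pola2, Rpa2 and Tyms, every 25HC library lay above. Of all tested genes 30% lay below and 28.5% above in this way. The count of calls differed between fits. In a fit of only the compared groups 29 fell and 3 rose, where 25.3% of all tested genes fell and 23.9% rose. Without replicate 2 at rest 32 fell and 3 rose, where 29.8% fell and 26.9% rose. In a fit of the 3 PAM3 groups, an alternative chosen after seeing the data, 30 fell and 3 rose, where 26.0% fell and 26.2% rose. Without any single library of these 2 groups the count was 4 to 10, where 17.7% to 24.8% of all tested genes fell. It was 4 without replicate 2 or 3 of untreated B6 with PAM3 and 4 without replicate 1 or 3 of 25HC-treated B6 with PAM3, and 7 without replicate 2 of the latter. The calls of Mcm10, Tk1, Rfc2 and Rfc5 remained without any 1 of the 6 libraries, and the other 8 were lost without at least 1, at adjusted p of 0.0511 to 0.136.

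Mcm10 and Tk1 showed the largest called falls with 25HC. Mcm10 stood at 2.25, 2.93 and 3.85 CPM without 25HC and at 0.772, 0.488 and 0.462 CPM with it, a log2 fold change of -2.39 ± 0.63, adjusted p = 0.00593. Tk1 stood at 1.66, 1.49 and 1.91 CPM without 25HC and at 0.246, 0.290 and 0.231 CPM with it, a 6.30-fold difference, log2 -2.65 ± 0.80, adjusted p = 0.0139. The groups did not overlap for either gene. Cdc6 stood at 2.32, 2.46 and 2.56 CPM without 25HC and at 0.772, 0.824 and 1.11 CPM with it, -1.45 ± 0.54, adjusted p = 0.0376.

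Rfc2 and Rfc5 of the clamp loader were lower with 25HC without overlap. Rfc2 stood at 23.8, 31.5 and 34.7 CPM without 25HC and at 17.9, 19.2 and 17.5 CPM with it, and had the smallest adjusted p of the 45, 0.00524. Rfc5 stood at 4.29, 6.26 and 6.67 CPM without 25HC and at 2.40, 2.65 and 2.61 CPM with it. Rpa1 stood at 55.6, 67.1 and 70.5 CPM without 25HC and at 33.2, 36.4 and 34.3 CPM with it.

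The other falls were spread over the roles. In synthesis they were Prim1 (-1.32), Pole2 (-1.25), Rfc5 (-1.17), Pold2 (-0.91) and Rfc2 (-0.72). Gins2 changed by -1.15 in origin firing, Chaf1a by -1.48 in chromatin and Rpa1 by -0.89 in single-strand binding. E2f1, which PAM3 alone did not change by the test, stood at 44.2, 49.3 and 50.1 CPM without 25HC and at 26.3, 35.0 and 29.2 CPM with it, -0.66 ± 0.22, adjusted p = 0.0230. With the mouse number as a block 15 genes fell and 1 rose, where 26.3% of all tested genes fell and 23.8% rose. Pold2 was no longer among them, at an adjusted p of 0.0546.

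Several genes missed the test although no library overlapped. Mcm6 stood at 40.5, 43.5 and 51.5 CPM without 25HC and at 17.4, 19.7 and 16.8 CPM with it, -1.33 ± 0.54, adjusted p = 0.0555. In the fit of only the 2 compared groups it was -1.31 ± 0.12, adjusted p = 0.000222. Mcm6, Dut, Rrm2 and Pole fell with the mouse number as a block, at adjusted p of 0.0375, 0.0422, 0.0259 and 0.0336. Dut was at -1.48 ± 0.59, adjusted p = 0.0539, and Rrm2 at -1.53 ± 0.83, adjusted p = 0.145. The fold change of Mcm6 moved little between the fits, while its SE fell from 0.54 to 0.12.

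Cdt1, Rpa2 and Tyms lay on the other side. Cdt1, which is held in check by degradation and by geminin once S phase begins, stood at 10.6, 13.6 and 14.9 CPM without 25HC and at 21.1, 19.7 and 18.5 CPM with it. Rpa2 stood at 15.6, 15.1 and 19.3 CPM without 25HC and at 27.98, 29.97 and 27.5 CPM with it. Tyms stood at 12.8, 5.95 and 9.93 CPM without 25HC and at 19.0, 18.1 and 19.9 CPM with it. All 3 were higher in each 25HC library than in any untreated one. The log2 fold changes were 0.60 ± 0.39, 0.78 ± 0.42 and 1.00 ± 0.63, with adjusted p of 0.219, 0.146 and 0.207.

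In the fit of only the compared groups the same 3 genes rose, by 0.62 ± 0.14, 0.79 ± 0.12 and 1.02 ± 0.25, with adjusted p of 0.00858, 0.00139 and 0.0125. With the mouse number as a block Tyms rose by 1.09, adjusted p = 0.0240. Mcm7 and E2f2, which fell with PAM3, did not pass the test for 25HC: Mcm7 was at -0.04 ± 0.53 and E2f2 at 0.19 ± 0.35.

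**Figure D4:**
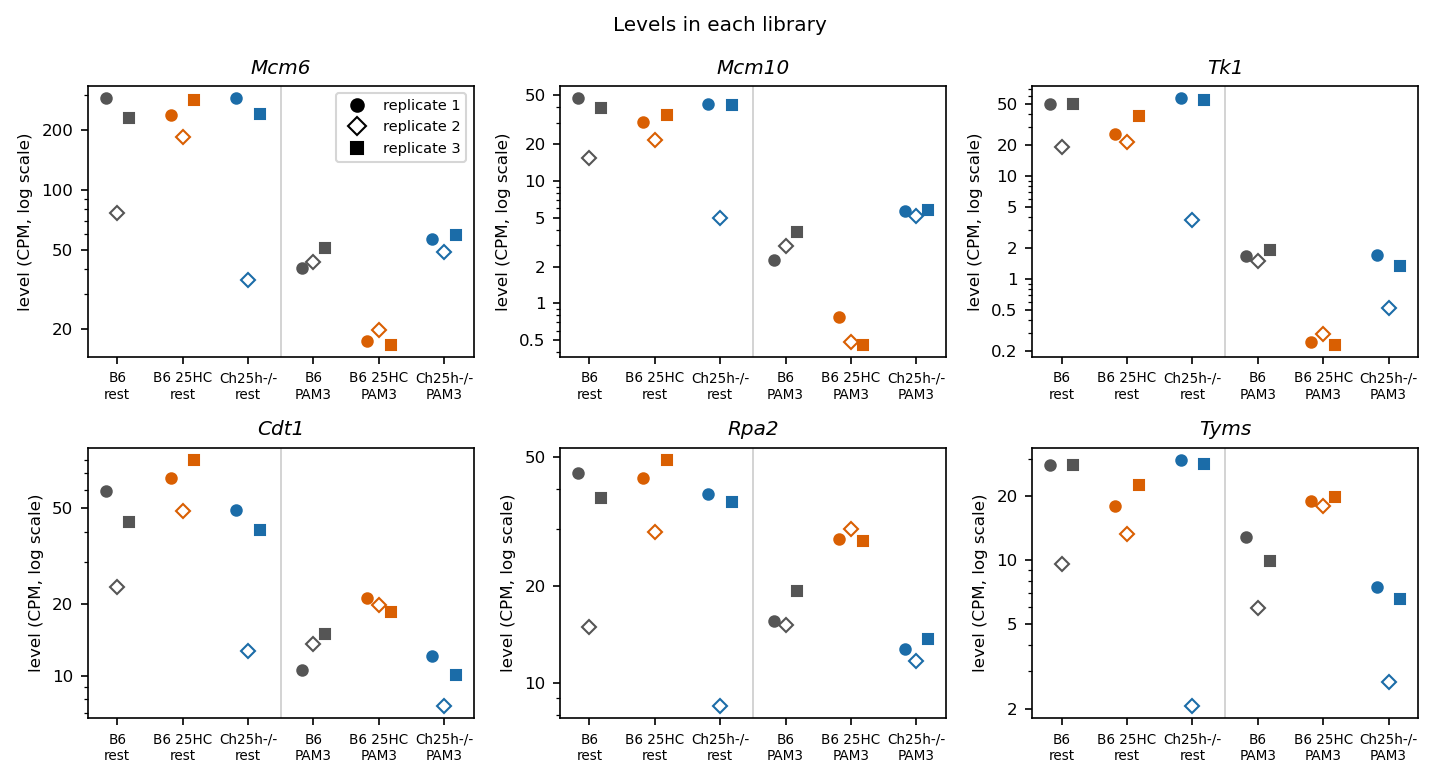
Level in CPM (y axis, log scale) of 6 genes in each of the 18 libraries by group; 1 point is 1 library and open diamonds are replicate 2. With PAM3, Mcm6, Mcm10 and Tk1 are lower in all 3 libraries with 25HC than in all 3 without it, and Cdt1, Rpa2 and Tyms are higher in all 3.

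Of the other lists in this comparison, 5 of 20 mitosis genes fell and 0 rose, with a median of -0.89. Here 23.6% of all tested genes fell and 21.5% rose. The counts of mitosis genes and of other nucleotide genes that fell were near that share. Among the 14 other nucleotide genes 4 fell: Dck, the kinase that salvages deoxycytidine, by 1.78 ± 0.35, and Samhd1, which breaks down deoxynucleotides, by 0.98 ± 0.17, with Impdh2 and Dctpp1. Of the 29 other replication genes 3 fell and 1 rose, among them Dnmt1, the maintenance DNA methyltransferase, at -1.25 ± 0.34. Ccnd3, the cyclin D3 gene, fell by 1.76 ± 0.21, and Cdkn1c rose by 2.39 ± 0.24 from a mean of 0.308 to 1.63 CPM. The 7 neutrophil markers summed to 7.60 to 11.1 CPM without 25HC and to 16.5 to 51.2 CPM with it, of which Mmp8 gave up to 45.9 CPM. Mmp8 was the 1 of the 6 tested markers that rose, Camp and S100a9 fell, and the median of the 6 was -1.66. The 5 B cell markers summed to 7.81 to 17.2 CPM without 25HC and to 0.895 to 1.67 CPM with it. Only 1 of these 5 passed the filter on low counts, and it fell. The part of both lists in the differences was not tested.

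At rest 25HC changed 0 of the 45 genes in edgeR's test, where 14.8% of all tested genes rose and 11.4% fell. At an unadjusted p under 0.05 there were 0 of the 45, against 4985 of all 12741 tested genes, and DESeq2 called 0 of the 45. The median was -0.01 over the 45 and -0.01 over all tested genes. For 45 of 45 genes the 2 groups overlapped, where 22.2% of all tested genes were higher and 20.2% lower in every 25HC library. With 1 library left out the median over the 45 ranged from -0.39, without replicate 2 of untreated B6, to 0.26, without its replicate 1. Cdt1 was at 0.63 ± 0.38, adjusted p = 0.233, Pola1 at -0.61 ± 0.44, adjusted p = 0.321, and Rfc2 at -0.33 ± 0.18, adjusted p = 0.199. Without replicate 2 of the resting groups 8 genes fell, namely Pola1, Rrm1, Prim2, Prim1, Rpa1, Rfc2, Pole and Tk1, where 15.3% of all tested genes fell, a share near that of the 45. Pola1 was then at -0.84 ± 0.15, adjusted p = 0.000949.

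**Figure D5:**
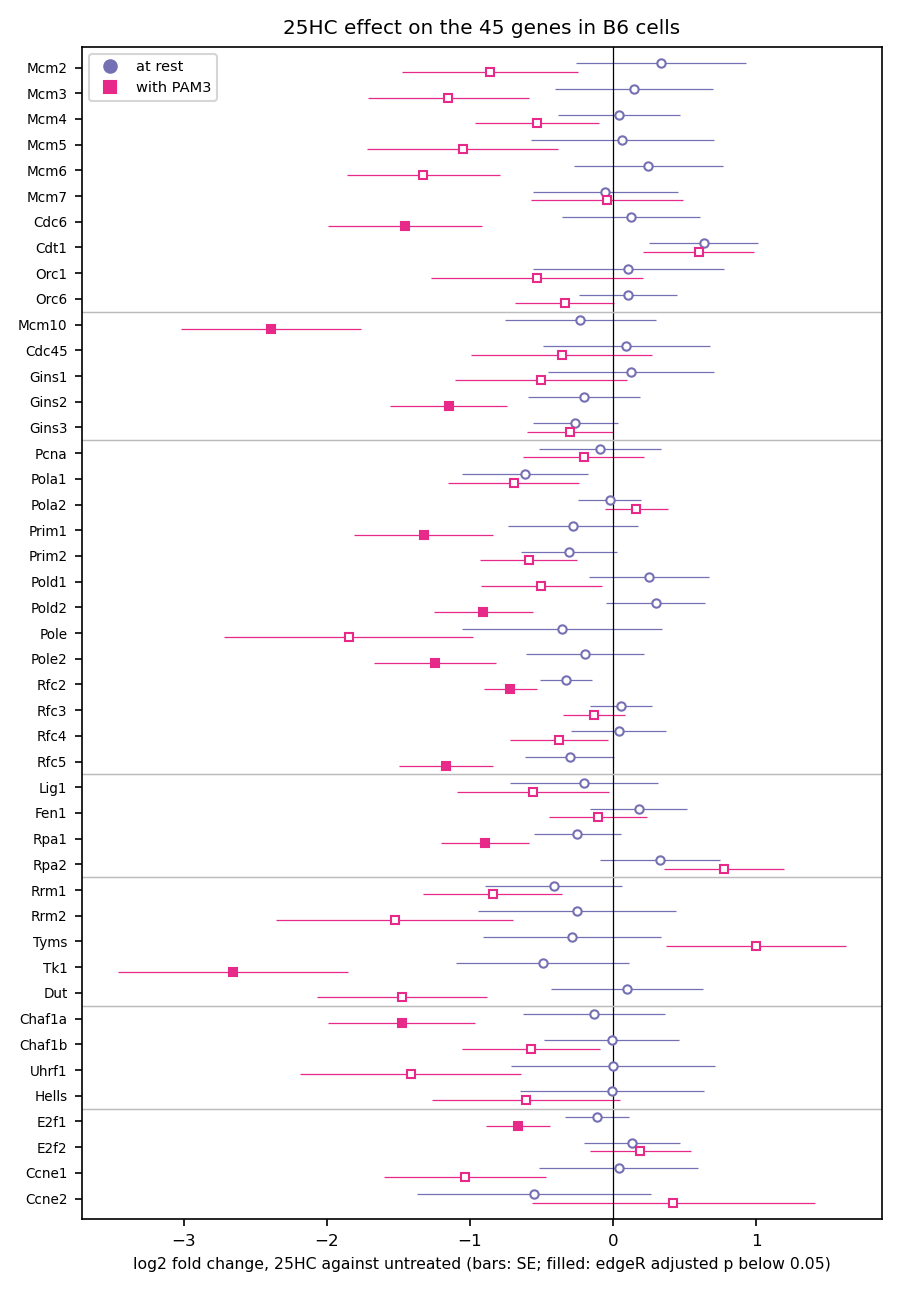
Log2 fold change of 25HC against untreated B6 (x axis; bars are SE) for each of the 45 genes (y axis, grouped by role), at rest and with PAM3; filled symbols passed an adjusted p of 0.05. No symbol is filled at rest, and the 12 filled symbols with PAM3 all lie left of 0.

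The interaction asked whether the PAM3 response differed between 25HC-treated and untreated B6. It called 0 of the 45 genes in edgeR's test, where 12.5% of all tested genes had a more positive and 15.8% a more negative response, with medians of -0.60 over the 45 and -0.08 over all. At an unadjusted p under 0.05 there were 4 of the 45, against 5251 of all 12741 tested genes, and DESeq2 called 1 of the 45. Mcm10 was at -2.16 ± 0.82, adjusted p = 0.0585, Tk1 at -2.16 ± 1.01, adjusted p = 0.117, and Tyms at 1.28 ± 0.88, adjusted p = 0.285. With the mouse number as a block 3 genes had a more negative response, Tk1, Cdc6 and Mcm10, and 19.9% of all tested genes. In a fit of only these 4 groups there were 4, and 15.9% of all tested genes. Without replicate 2 at rest 19 genes had a more negative and 3 a more positive response, where the shares of all tested genes were 21.5% and 16.2%. Without replicate 1 of untreated B6 at rest 2 were called, and without replicate 2 of untreated B6 at rest alone, or of 25HC-treated B6 at rest alone, 0 were. The count of calls thus differed between fits, with and without libraries left out.

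Ch25h-/- against B6 asked whether loss of the enzyme moved these genes. How much 25HC the cells of either genotype made is not known from these libraries. At rest 0 of the 45 changed in edgeR's test, where 0% of all tested genes rose and 0.00785% fell, and the median was -0.14 over the 45 and -0.01 over all. The log2 difference was below 0 for 41 of the 45 genes, and 22 were lower in all 3 same-numbered pairs and 0 higher. Such pairs join different mice that share only a number, and all tested genes were not counted in this way. These signs turned on single libraries: without replicate 1 of untreated B6 at rest 43 genes lay above 0, with a median of 0.16, and without replicate 2 of Ch25h-/- at rest 44 did, with a median of 0.26. Without replicate 1 of Ch25h-/- at rest 45 lay below 0, with a median of -0.52. With the replicate number as a block 0 were called and 1 was at an unadjusted p under 0.05. With PAM3 0 changed, where 0.0471% rose and 0.126% fell, and the median was 0.08. Both comparisons had 0 of the 45 at an unadjusted p under 0.05, against 704 of 12741 tested genes at rest and 1784 with PAM3. DESeq2 called 0 of the 45 in both. With PAM3 10 of the 45 were at an unadjusted p under 0.05 in a fit of only the compared groups and 11 in a fit of the 3 PAM3 groups, both with 0 called. How many of all tested genes reached that p in these 2 fits was not counted, so the 10 and 11 have no share to be set against. The interaction of genotype and PAM3 called 0 of the 45, where 0% of all tested genes were called in either direction, with 0 at an unadjusted p under 0.05 and 0 called by DESeq2. Its median was 0.23 over the 45 and -0.03 over all. With 1 library left out this median ranged from -0.19, without replicate 2 of Ch25h-/- at rest, to 0.55, without its replicate 1, and leaving out replicate 1 of untreated resting B6 gave -0.10.

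With PAM3 the groups did not overlap for 8 genes, 5 higher and 3 lower in Ch25h-/-, where 7.12% of all tested genes were higher and 13.3% lower in this way. The 8 are thus near the share of all genes, and Mcm10 and Pola1 are given as a description. Mcm10 stood at 5.68, 5.23 and 5.81 CPM in Ch25h-/- against 2.25, 2.93 and 3.85 CPM in B6, a log2 difference of 0.89 ± 0.57, adjusted p = 0.506. Pola1 stood at 12.7, 10.7 and 11.9 CPM against 8.45, 7.90 and 6.38 CPM, 0.63 ± 0.46, adjusted p = 0.565. Without replicate 2 at rest these 2 genes were called higher, at adjusted p of 0.0309 and 0.0292, as were 0.960% of all tested genes. With 25HC and PAM3 they stood at 0.772, 0.488 and 0.462 CPM for Mcm10 and at 4.74, 4.30 and 5.09 CPM for Pola1, and both comparisons use the same untreated libraries.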

How the data were processed

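Values are counts per gene that the authors deposited in 1 table, 1 column per library. The submitters' processing notes say that reads were checked with FastQC 0.11.9, aligned to GRCm38 with GSNAP, counted with featureCounts of Subread 1.5.2 and passed to edgeR 3.26.8. The sources used here do not state how the counting treated strand and multiply aligned reads, nor its annotation. Per the labels the libraries were stranded.

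The 45 genes and the other lists were chosen with earlier results of these data known. Tests used edgeR 4.0.16 (R 4.3.3): filterByExpr by group, TMM, a mean per group in 1 fit of 18 libraries, the robust two-sided quasi-likelihood test and Benjamini-Hochberg adjustment over 12741 genes, called at 0.05. SE was derived from the fold change and the F statistic (|log2 fold change| / sqrt F). Within-number changes used log2(CPM + 0.5). The scripts were tested on simulated data. All 45 genes are named, with every library's value for the highest and the smallest-p gene of a role, up to 6 called genes of smallest p in a comparison, and others chosen after their values were seen. Of other lists up to 2 genes of smallest p in a comparison are named, apart from 1 that is not reported here; Ccnd1, Cd4, Mmp8, S100a9, Impdh2 and Dctpp1 were chosen after their values were seen. Alternatives were DESeq2 1.42.0 and its size factors, no filter or 1 CPM in 3 libraries, only the compared groups, a replicate block and libraries left out. Positions came from GENCODE M21 and promoters from RefSeq GRCm38.p6.

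Within a genotype the labels give 1 mouse per number. Deviations from group means of same-numbered libraries, replicates 1, 2 and 3, correlated at 0.448, 0.581 and 0.348 between 25HC-treated and untreated B6 at rest and at 0.406, 0.377 and -0.162 with PAM3. Between untreated B6 and Ch25h-/-, which are different mice, they correlated at 0.574, 0.705 and 0.327 at rest and at 0.322, 0.459 and 0.0949 with PAM3. No 2 replicates were copies of one library.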

Additional observations from a re-analysis of the deposited data

How the results depend on the processing

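Calls among the 45 genes for the PAM3 responses moved by less than 1.5 times under every alternative run. With 1 library left out they ranged from 32 to 41 in untreated B6, from 39 to 42 with 25HC and from 28 to 43 in Ch25h-/-. The 12 calls for 25HC with PAM3 became 7 with no filter on low counts and 4 to 10 with 1 library left out. Of all tested genes 14.4% fell with no filter and 17.7% to 24.8% with 1 library left out. The 12 calls became 32 in a fit of only the compared groups, 35 without replicate 2 at rest and 33 in a fit of the 3 PAM3 groups. The 0 calls for 25HC at rest became 8 without replicate 2 at rest, and the 0 for Ch25h-/- against B6 with PAM3 became 2. The interaction of 25HC and PAM3, 0 calls, gave 4 in only the compared groups, 1 with the DESeq2 Wald test, 3 with the replicate block, 22 without replicate 2 at rest and 0 to 2 with 1 library left out. The replicate block changed no other count by over 1.5 times. With 1 library left out, up to 19 of the 45 values of 25HC at rest, 40 of Ch25h-/- against B6 at rest, 10 of Ch25h-/- against B6 with PAM3, 7 of the interaction of 25HC and PAM3 and 24 of that of genotype and PAM3 lay on the other side of 0, against up to 2 in 25HC with PAM3 and in the PAM3 responses. Among the genes followed singly, E2f1, PAM3 in untreated B6, ranged from -0.40 to 0.025 with 1 library left out, the latter without replicate 1 of untreated B6 at rest. Tyms, PAM3 with 25HC, ranged from -0.10 to 0.27 with 1 library left out, the former without replicate 2 of that group at rest, and was -0.096 without replicate 2 at rest in all groups. Mcm7, 25HC with PAM3, ranged from -0.13 to 0.082. The cause of these changes was not tested. Leaving out replicate 2 at rest left 2 libraries in each resting group. It also removed the lowest resting library of nearly all of the 45 genes, so it was not a choice independent of their values. With 3 libraries per group and as few as 7 counts in 1 library, both number and depth limit the precision.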

Other observations

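The 16 genes with an E2F core word in the promoter window and the 22 without one can be set side by side, as a description without a test. The windows of E2f1 and Dut, counted as without a word, lay wholly inside the gene as GENCODE gives it. The sequence before their outermost start was thus not searched. In untreated B6 the median log2 change with PAM3 was -2.24 over the former 16, with 16 called, and -1.54 over the other 22, with 15 called. Of all tested genes 30.8% fell there. With PAM3 in 25HC-treated B6 the medians were -3.07, with 16 called, and -2.07, with 19 called, where 30.4% of all tested genes fell. With PAM3 in Ch25h-/- they were -1.79, with 12 called, and -1.48, with 16 called, where 32.1% fell. For 25HC with PAM3 the medians were -0.58, with 2 called, and -0.85, with 8 called, where 23.6% of all tested genes fell. The ranges overlapped in each of these comparisons: with PAM3 in untreated B6 they ran from -3.60 to -0.90 and from -4.95 to 0.62.

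Genes that p53 activates were followed as a separate list of 10, in which 3 rose and 3 fell with PAM3 in untreated B6. These counts are near the 31.3% of all tested genes that rose and the 30.8% that fell. Trp53inp1 fell by 2.84 ± 0.32, from a mean of 173 to 24.1 CPM. With 25HC at rest 2 of the 10 rose and 5 fell, where 14.8% of all tested genes rose and 11.4% fell. Trp53inp1 was again among those that fell, by 2.04 ± 0.31 to a mean of 42.1 CPM. Both comparisons use the same untreated resting libraries. Mdm2, which targets p53 for degradation, rose by 0.87 ± 0.14 with 25HC in PAM3-treated cells, where Phlda3 fell by 1.66 ± 0.20. Rb1, the retinoblastoma gene, fell by 1.08 ± 0.14 with 25HC at rest, where Cdkn1c rose by 1.92 ± 0.21.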
